A study of Mus musculus with 15 samples.

Results

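The genes described here encode respiratory complex I, the NADH:ubiquinone oxidoreductase of the inner mitochondrial membrane, in mouse RPE/choroid. Members were all protein-coding genes of the count table whose symbol starts with Nduf followed by a, b, c, s or v and a digit, or with mt-Nd. The rule matched 46 entries, which are 44 genes once 2 repeats of Ndufb4 with the same gene name are collapsed, out of 40481 genes in all. Of these, 37 are nuclear (14 named A, 10 named B, 2 named C, 8 named S and 3 named V) and 7 are encoded by mitochondrial DNA. All 44 passed the low-count filter and are among the 17991 genes tested. Ndufab1, a subunit as well, falls outside the spelling of the rule, while Ndufa4 and its relative Ndufa4l2 fall inside it although their products are assigned to complex IV. The processed pseudogenes Ndufa11b, Ndufb4c and Ndufs6b carry matching names and are not members.

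Bulk RNA-seq libraries were made from the retinal pigment epithelium (RPE) and the vascular choroid beneath it, in a study of senescent cell removal in mice with drusenoid deposits under the retina. The 7 control libraries come from mice labelled Abca1/Abcg1 flox/flox LysM-Cre, and the 8 INK-ATTAC libraries from mice of that genotype that also carry the INK-ATTAC transgene. Both groups thus share the floxed alleles of 2 cholesterol efflux transporter genes and a Cre recombinase driven from the myeloid gene Lyz2. Every library is labelled as AP20187 given into the peritoneum, so the controls received the drug too. In INK-ATTAC mice this drug dimerizes a fusion of FKBP and caspase 8 made from the p16Ink4a promoter and kills the cells that express it, and the submitters describe alternate-day injection over 3 months for these mice. The age of the mice is not given in the sources used here. Nothing in the labels ties each library to an animal of its own. The p-values therefore cover only the spread between these samples, which may be technical. In whole tissue, fewer cells of a type and less RNA per cell cannot be told apart.

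Complex I takes electrons from NADH, passes them to ubiquinone and pumps protons across the inner membrane. Its hydrophilic arm holds the N module, where NADH is oxidized, and the Q module, where ubiquinone is reduced. The membrane arm holds the 7 subunits encoded by mitochondrial DNA, the proton-pumping ones among them. The other subunits are encoded in the nucleus and imported from the cytosol, so the assembly of the complex draws on both genomes. The RPE is rich in mitochondria, and complex I has been studied there in connection with retinal ageing.

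Total counts ran from 39121503 in control 4 to 65065950 in INK-ATTAC 6, and controls 4 and 5 were the shallowest libraries. The control mean was 49911319 ± 6938358 (SD, n = 7) and the INK-ATTAC mean 51901923 ± 5784427 (SD, n = 8). Controls 4 and 5 also stood apart from the other 13 libraries in the members, being the highest pair for 4 of the 7 mitochondrially encoded and 3 of the 37 nuclear members, and the lowest pair for 1. Values without these 2 controls are given where they moved a result. Of the 15 RPE markers, Rgr, Ttr and Rpe65 were abundant in controls, with means of 33597, 24099 and 5926 CPM (counts scaled to TMM library sizes). Best1, of the same list, was at 3.23 CPM. Markers of other tissues were present too, with control sums of 3260 to 6139 CPM for rod and 418 to 3270 CPM for skeletal muscle markers. No marker list had a gene at 0 in every library.

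Some mitochondrially encoded members have near-identical copies in a stretch of mitochondrial sequence inserted into nuclear chromosome 1, and the copies are shown here because they bear on which reads were counted. On GRCm38 the copies lie on the minus strand. Gm28438, at chr1:24612775-24613119, matches mt-Nd3 over 345 bases with a single difference. That difference, T3C, has the base of mt-Nd3 first and is counted from 1 at its 5′ end. It is the capital letter in the first 30 bases of each gene, read from the GENCODE transcripts.
mt-Nd3: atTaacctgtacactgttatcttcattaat
Gm28438: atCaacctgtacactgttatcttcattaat

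Gm10222, at chr1:24612407-24612700, is identical to mt-Nd4l over all 294 of its bases, so a read from inside mt-Nd4l has 2 equal places in the genome. The mt-Nd4l transcript (chrM:9877-10173, plus strand, 297 bases) encodes a small membrane-arm subunit and reads as follows.
mt-Nd4l: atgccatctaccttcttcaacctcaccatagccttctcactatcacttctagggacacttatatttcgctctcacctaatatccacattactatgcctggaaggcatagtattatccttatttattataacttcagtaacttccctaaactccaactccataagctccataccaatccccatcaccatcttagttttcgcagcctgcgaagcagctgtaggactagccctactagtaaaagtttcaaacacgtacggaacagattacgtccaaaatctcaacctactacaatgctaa

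Over the 15 libraries mt-Nd4l held 3538 counts and Gm10222 held 3352, so the copy took 48.7% of the reads of the pair. Gm28438 took 5.43% of the reads it shares with mt-Nd3. Gm28439, at chr1:24611535-24612410, is identical to mt-Nd4 over 876 bases, or 63.6% of that gene, and took 2.23%. How reads with 2 equal places were counted is not given, so the share of a copy does not measure how many such reads were lost. The levels of mt-Nd4l and mt-Nd3, each matched by a copy over nearly its whole length, are therefore uncertain. That of mt-Nd4 is uncertain over the matched part.

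Levels per gene length set the 2 genomes apart. Per kilobase of exon (CPM per kb, mean of 15 libraries), mt-Nd1 stood highest of the 44 at 3185, followed by mt-Nd5 at 1187, mt-Nd4 at 1030.1, mt-Nd2 at 948 and mt-Nd6 at 699. Ndufb11, a small membrane-arm accessory subunit, was the highest nuclear member at 590.1 CPM per kb, ahead of Ndufa1 (439) and Ndufa2 (413). The nuclear median was 143 CPM per kb. mt-Nd3 reached 276 CPM per kb and fell among the nuclear members, and mt-Nd4l, with its reads shared, was at 15.7. The lowest nuclear members were Ndufb2 (3.25), Ndufs1 (11.9), Ndufa4l2 (16.5) and Ndufb5 (26.6 CPM per kb). Ndufb2, Ndufs1 and Ndufb5 have annotated exons of 5.628, 8.086 and 4.995 kb in union, the longest of the nuclear members, which lowers a level per length. Ndufb2 also shares exon sequence on its own strand with Gm42420 and on the other strand with Gm16272 and Braf. In all, 22 of the 44 members overlap an exon of another gene, and their counts are less certain for it.

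**Figure D1:**
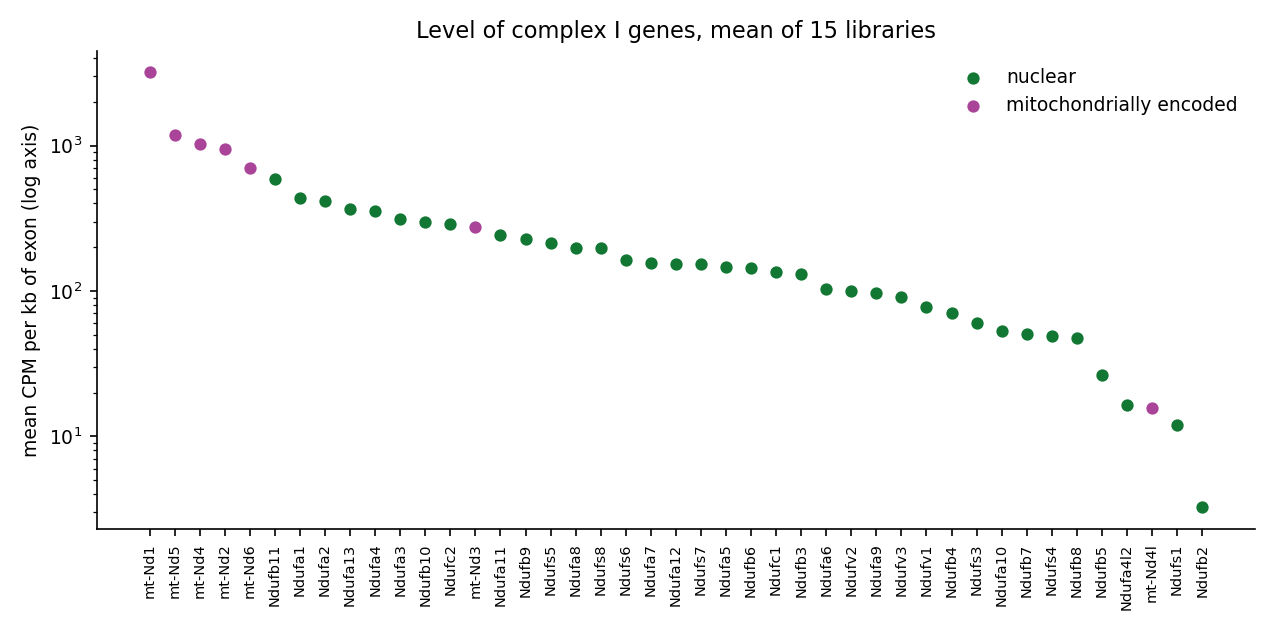
Mean level of complex I genes (all members but 1) over 15 libraries, in CPM per kilobase of exon on a log axis, ordered from high to low and coloured by genome of origin. The 5 highest genes are mitochondrially encoded, from 3185 for mt-Nd1 to 699 for mt-Nd6, while mt-Nd3 (276) and mt-Nd4l (15.7) fall among the nuclear genes.

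The spread between libraries was moderate for most nuclear members. The coefficient of variation over the 15 libraries ran from 8.57% for Ndufa13 to 27.0% for Ndufa4l2, with a median of 12.0%. For the mitochondrially encoded members it ran from 10.7% for mt-Nd4 to 31.2% for mt-Nd3. The highest library exceeded the lowest 1.55-fold at the median nuclear member and 1.78-fold at the median mitochondrially encoded one. The wider mitochondrial spread rested in part on controls 4 and 5, the highest pair for mt-Nd2, mt-Nd3, mt-Nd5 and mt-Nd6. Within the INK-ATTAC group the summed mitochondrially encoded level had an SD of 695 CPM, below the 819 CPM of the nuclear sum.

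In the comparison of INK-ATTAC with control libraries, no member passed the test. The fold changes of the nuclear members leaned slightly above 0, and those of the mitochondrially encoded members lay slightly below 0 with controls 4 and 5 in the comparison and slightly above 0 at the median without them. With edgeR's quasi-likelihood test, 0 of the 44 members had an adjusted p under 0.05, against 0% of all 17991 genes tested, and the adjusted p of every member was 1.00. DESeq2 (0.0334% of all genes) and limma-voom with sample quality weights (0.0111%) also called 0 members. The log2 fold change, here always INK-ATTAC against control, was above 0 for 33 of the 37 nuclear members (89.2%), where 49.8% of all genes tested lay above 0. The nuclear median was 0.09, with a range from -0.05 to 0.20, beside -0.00097 for all genes. Of the 7 mitochondrially encoded members, 1 was above 0, and their median was -0.13 (range -0.26 to 0.31). Without controls 4 and 5 the mitochondrial median was 0.08 with 5 of 7 above 0, and the nuclear median 0.13 with 36 of 37 above 0. With the level of skeletal muscle markers as a covariate the nuclear median was 0.02, with 24 of 37 above 0. At an unadjusted p under 0.05 there were 4 nuclear members (10.8%), all higher, where 4.14% of all genes tested reached it and 2.20% did so on the higher and 1.94% on the lower side. No mitochondrially encoded member reached it. Members are measured together in each library and most vary together, so their shared direction is not a count of independent results. No member had control and INK-ATTAC ranges that did not overlap, and 0.0222% of all genes tested did.

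**Figure D2:**
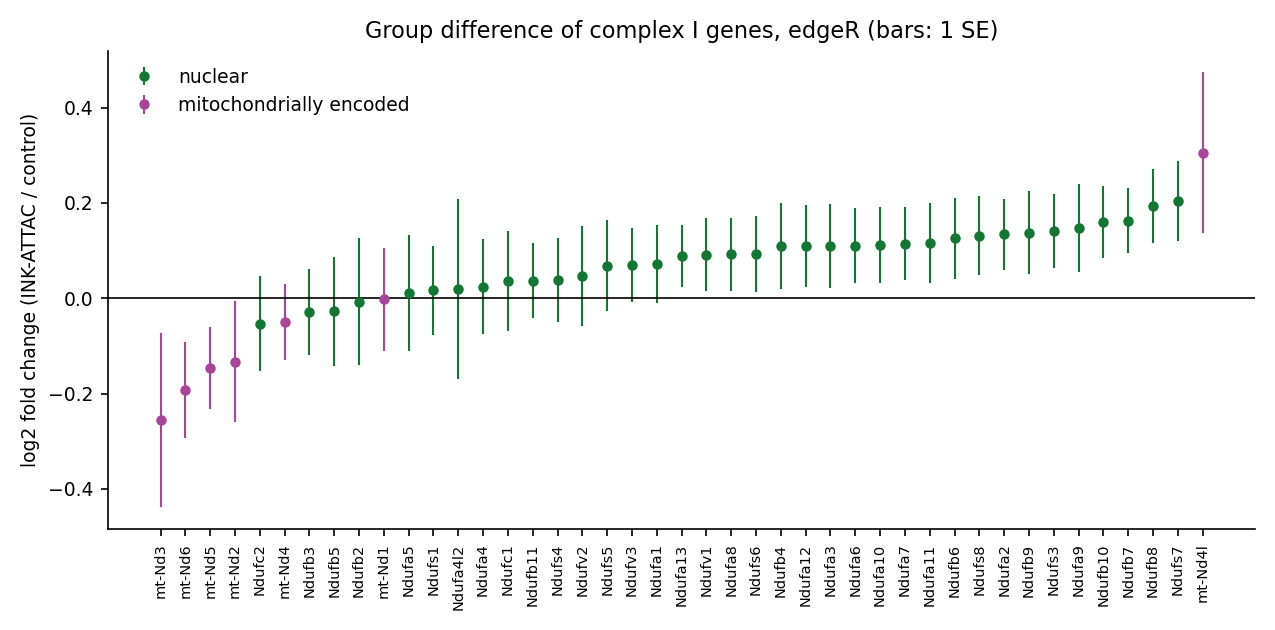
Log2 fold change (INK-ATTAC against control, edgeR) of complex I genes (all members but 1) with bars of 1 standard error, 7 against 8 libraries, coloured by genome of origin. Nuclear genes lie between -0.05 and 0.20, and mitochondrially encoded genes between -0.26 (mt-Nd3) and 0.31 (mt-Nd4l). Adjusted p was 1.00 for each gene.

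Among the 7 nuclear core subunits, which carry the flavin and iron-sulfur clusters or form the quinone site, all 7 log2 fold changes were above 0. Ndufs7, the Q-module subunit that holds the last iron-sulfur cluster before ubiquinone (chr10:80249121-80256794), had 196, 243 and 293 CPM as the lowest, median and highest control and 249.6, 278 and 330.2 CPM as those of the INK-ATTAC libraries. Controls 4 and 5 were the lowest 2 of the 15 at 196 and 207 CPM, and the other 5 controls, at 240.1 to 293 CPM, overlapped the INK-ATTAC libraries. The log2 fold change was 0.20 (SE 0.08), the highest of the nuclear members, with an unadjusted p of 0.0268 that did not hold on adjustment by Benjamini-Hochberg in edgeR (1.00). It was 0.11 when controls 4 and 5 were left out.

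Ndufs8, an iron-sulfur subunit of the Q module, had 221, 231 and 277 CPM in controls and 225, 263 and 330.0 CPM in the INK-ATTAC group (log2 fold change 0.13, SE 0.08). Ndufs3, which helps form the Q module, had 106, 126 and 139 CPM and 112, 144 and 149.6 CPM (0.14, SE 0.08). In both genes the groups overlapped over most of their range, with the INK-ATTAC median above the control median.

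Of the core subunits of the N module, Ndufv1, which binds NADH and the flavin, had 170.1, 201 and 226 CPM in controls and 176, 214 and 231 CPM in the INK-ATTAC group (log2 fold change 0.09, SE 0.08). Ndufv2, its iron-sulfur partner, had 169, 204 and 268 CPM and 179, 217 and 259.7 CPM (0.05, SE 0.10). Ndufs1, the large iron-sulfur subunit, had 84.7, 90.5 and 113 CPM and 75.9, 101 and 111 CPM (0.02, SE 0.09). The INK-ATTAC range of Ndufs1 reached below the control range, and the direction of Ndufs1 and Ndufv2 turned when single libraries were left out. Ndufv2 was at 0.18 and Ndufs1 at 0.07 without controls 4 and 5.

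By module, all 10 N-module genes had a log2 fold change above 0 (median 0.09), as did all 6 of the Q module (median 0.14). In the proximal membrane arm 9 of 14 did (median 0.07) and in the distal membrane arm 7 of 12 (median 0.07), counts that include the mitochondrially encoded subunits. Over all genes tested 49.8% lay above 0. The lower counts of the membrane arm rested on controls 4 and 5. Without them Ndufc2, Ndufb2, Ndufb3 and Ndufb5 turned above 0, and 36 of 37 nuclear and 5 of 7 mitochondrially encoded members were above 0. Accessory nuclear members, which surround and stabilize the core, were above 0 in 26 of 30 cases with a median of 0.09.

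The other 3 members at an unadjusted p under 0.05 are all accessory subunits of the distal membrane arm. Ndufb8 (chr19:44548572-44555440), which shares exon sequence on its strand with Gm20538, had 115, 140.5 and 156 CPM in controls and 135, 158 and 181 CPM in the INK-ATTAC group (log2 fold change 0.19, SE 0.08, unadjusted p = 0.0235). Ndufb7 (chr8:83566671-83571626) had 192, 215 and 241 CPM and 214, 239.9 and 276 CPM (0.16, SE 0.07, unadjusted p = 0.0288). Ndufb10 (chr17:24722060-24724478) had 290.3, 338 and 388 CPM and 338, 376 and 452 CPM (0.16, SE 0.08, unadjusted p = 0.0482). For all 3 genes the lowest INK-ATTAC library lay below the control median, though only just for Ndufb7 and Ndufb10. That library was INK-ATTAC 7 for Ndufb8 and Ndufb10 and INK-ATTAC 3 for Ndufb7. INK-ATTAC 1 and 2 were the highest libraries for all 3 genes. The log2 fold changes were 0.23 for Ndufb8, 0.13 for Ndufb7 and 0.12 for Ndufb10 without controls 4 and 5. Adjusted over all genes with edgeR, each of these p-values was 1.00.

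Among the accessory subunits, next by size were Ndufa9, an NADPH-binding accessory subunit near the quinone site (log2 fold change 0.15, SE 0.09), Ndufb9 (0.14, SE 0.09), which shares exon sequence with Gm49356, and Ndufa2 of the N module (0.13, SE 0.07). Ndufa9 had 162, 184 and 244 CPM in controls and 171, 217 and 254 CPM in INK-ATTAC libraries. Its highest control was above the INK-ATTAC median.

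The 4 nuclear members below 0 were Ndufc2, Ndufb3, Ndufb5 and Ndufb2, all accessory subunits of the membrane arm. Ndufc2 had 177, 209 and 291 CPM in controls and 182, 216 and 247 CPM in the INK-ATTAC group (log2 fold change -0.05, SE 0.10). Ndufb2 had 14.2, 16.1 and 25.6 CPM and 15.7, 18.3 and 22.0 CPM (-0.0069, SE 0.13). In both genes controls 4 and 5 were the highest 2 of the 15 libraries, and the INK-ATTAC median was above the control median although the fold change of the means was below 0. Ndufb3 gave -0.03 (SE 0.09) and Ndufb5 -0.03 (SE 0.11). Without controls 4 and 5 the log2 fold changes became 0.09 for Ndufc2, 0.24 for Ndufb2, 0.08 for Ndufb3 and 0.12 for Ndufb5. Ndufa5, a Q-module accessory subunit, showed the same 2 controls on top, at 182 and 214 CPM against 117 to 151 CPM in the other 5 controls and 131 to 179.7 CPM in INK-ATTAC libraries (0.01, SE 0.12). Without them Ndufa5 was at 0.21.

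Ndufb11 and Ndufa1, of the highest level per length, and Ndufa4 gave differences smaller than their standard error with all libraries. Ndufb11 had 454, 535 and 644 CPM in controls and 470.3, 542 and 634 CPM in the INK-ATTAC group (log2 fold change 0.04, SE 0.08). Ndufa1, a proximal-arm subunit encoded on the X chromosome, gave 0.07 (SE 0.08). Ndufa4, of complex IV, had 391, 470.1 and 651 CPM and 422, 504 and 588 CPM (0.02, SE 0.10). The groups overlapped almost fully in all 3. Leaving out controls 4 and 5 gave 0.11 for Ndufb11, 0.12 for Ndufa1 and 0.15 for Ndufa4.

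Ndufa4l2, a paralogue of Ndufa4 known as a hypoxia-induced gene, was at a low level, with 11.1, 18.0 and 27.6 CPM in controls and 11.4, 18.5 and 23.6 CPM in the INK-ATTAC group (log2 fold change 0.02, SE 0.19). It was lowest in control 5 (11.1 CPM) and INK-ATTAC 2 (11.4 CPM), the libraries with the highest nuclear sum in their groups, and highest in control 6 (27.6 CPM), the library with the lowest. INK-ATTAC 1 went the other way, with the next highest nuclear sum of its group (8757 CPM) and the group's highest Ndufa4l2 (23.6 CPM). The log2 fold change of Ndufa4l2 without controls 4 and 5 was -0.13. Its exon overlaps Shmt2 on the other strand.

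The mitochondrially encoded members all encode core membrane subunits. mt-Nd1, which contributes to the quinone site, had 2398, 2962 and 3909 CPM in controls and 2618, 2997 and 3658 CPM in the INK-ATTAC group (log2 fold change -0.0026, SE 0.11). The pump subunit genes mt-Nd2 (749, 962 and 1475 CPM against 832, 922 and 1085 CPM), mt-Nd4 (1206, 1465 and 1761 against 1227, 1378 and 1643 CPM) and mt-Nd5 (1908, 2197 and 2907 against 1777, 2034 and 2348 CPM) gave log2 fold changes of -0.13 (SE 0.13), -0.05 (SE 0.08) and -0.15 (SE 0.09). The control maximum was control 5 in each of these 4 genes, and the spread of the controls covered nearly all INK-ATTAC libraries. Leaving out controls 4 and 5 gave 0.13 for mt-Nd1, 0.08 for mt-Nd2, 0.02 for mt-Nd4 and -0.04 for mt-Nd5.

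mt-Nd6, the only member on the light strand of mitochondrial DNA, had 313, 364 and 531 CPM in controls and 299, 351 and 375 CPM in the INK-ATTAC group (log2 fold change -0.19, SE 0.10, unadjusted p = 0.0719). Controls 4 and 5 were its highest 2 libraries, at 459 and 531 CPM, and without them its log2 fold change was -0.03. mt-Nd3 had 68.1, 86.8 and 168 CPM in controls and 74.0, 86.7 and 105 CPM in the INK-ATTAC group (-0.26, SE 0.18). For mt-Nd3 the group medians were nearly equal, and controls 4 and 5, at 159 and 168 CPM, stood above the other 13 libraries, whose highest was 107 CPM. Without these 2 the log2 fold change of mt-Nd3 was 0.10. mt-Nd4l had 3.12, 3.95 and 5.28 CPM in controls and 3.47, 5.15 and 7.32 CPM in the INK-ATTAC group (0.31, SE 0.17, unadjusted p = 0.0872), from 151 counts or more per library. With the reads of Gm10222 added, mt-Nd4l gave 0.16, and with those of Gm28438 added, mt-Nd3 gave -0.25. The copies themselves gave 0.02 (SE 0.18) for Gm10222, -0.23 (SE 0.19) for Gm28438 and -0.03 (SE 0.13) for Gm28439.

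The nuclear and mitochondrially encoded members can be set against each other within a library, where scaling cancels. The summed level of the nuclear members was 7634 ± 741 CPM for control (SD, n = 7) and 8125 ± 819 CPM for INK-ATTAC libraries (SD, n = 8), and that of the mitochondrially encoded members 8311 ± 1428 and 7880 ± 695 CPM. The nuclear sum was 0.815 times the mitochondrial one in the lowest control, 0.958 in the median and 1.01 in the highest, against 0.986, 1.04 and 1.07 in the INK-ATTAC libraries. Controls 4 and 5 were lowest of all, at 0.815 and 0.818, controls 3 and 7 lay inside the INK-ATTAC range, and controls 1, 2 and 6 fell between. The mean log2 ratio was -0.11 ± 0.13 for control (SD, n = 7) and 0.04 ± 0.04 for INK-ATTAC libraries (SD, n = 8). The difference was 0.15 and became 0.08 without controls 4 and 5. No test was run on this ratio, since its members were chosen with earlier results known.

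**Figure D3:**
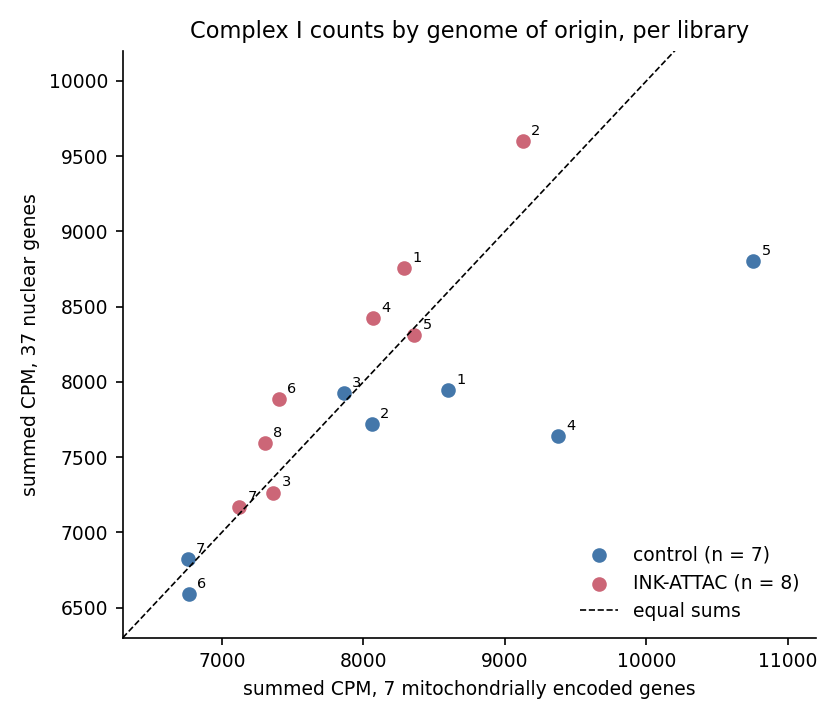
Summed CPM of the 37 nuclear genes (vertical axis) against summed CPM of the 7 mitochondrially encoded genes (horizontal axis), 1 point per library, coloured by group, with a dashed line of equal sums. Controls 4 and 5 lie farthest below the line, with ratios of 0.815 and 0.818.

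In limma-voom with sample quality weights, which weights libraries by how well they match their group, the mitochondrial median was -0.0004 and all 37 nuclear members were above 0. The authors' deposited table likewise gave all 37 nuclear members a log2 fold change above 0, with a median of 0.14. Of the mitochondrially encoded members 4 of 7 were above 0 in the authors' deposited table (median 0.0089), where the lowest adjusted p of any member was 0.634.

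Most nuclear members varied together from library to library. The following correlations describe 15 libraries that share their depth and scaling within each library. Between pairs of nuclear members the median Pearson r of log2 CPM was 0.76, and 623 of 666 pairs were above 0. Pairs of mitochondrially encoded members had a median of 0.71 (21 pairs), and pairs across the genomes 0.48 (231 of 259 above 0). The mean levels of the nuclear and mitochondrially encoded members gave a Pearson r of 0.70 and a Spearman rho of 0.79, and without the 2 libraries farthest from the median mitochondrial level 0.89 and 0.91.

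Single nuclear members differed in how closely they followed the others. Ndufb4 followed the mean of the other nuclear members most closely (r = 0.98), and 25 of the 37 were above 0.8. Ndufs7 was at 0.35 and Ndufa4l2 at -0.65. Against the mean of the mitochondrially encoded members, 11 nuclear members were above 0.8, led by Ndufc2 (0.95), Ndufa5 (0.94), Ndufb2 (0.93) and Ndufa4 (0.92). The 5 under 0.2 were Ndufb7 (0.14), Ndufv1 (0.10), Ndufb10 (0.07), Ndufs7 (-0.37) and Ndufa4l2 (-0.70). By rank the first 4 of these came closer to the mitochondrial level, with Spearman rho of 0.35, 0.25, 0.36 and 0.04, while Ndufa4l2 was at -0.63. The low values of these 4 rested on controls 4 and 5. Over the other 13 libraries r was 0.83 for Ndufb7, 0.58 for Ndufv1, 0.79 for Ndufb10 and 0.56 for Ndufs7, 25 of the 37 members were above 0.8, and Ndufa4l2 (-0.59) was the only member under 0.2.

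With all 15 libraries these differences ran with base composition. GC content of the protein-coding transcripts was 43.9 to 60.4% over the nuclear members (median 52.4%) and 33.0 to 41.1% over the mitochondrially encoded ones. Ndufs7 (60.1%), Ndufb7 (59.7%), Ndufa4l2 (59.3%), Ndufv1 (56.9%) and Ndufb10 (56.0%), the members of lowest r with the mitochondrial level, were all above the median. Ndufa5 (50.7%), Ndufc2 (49.3%), Ndufb2 (49.0%) and Ndufa4 (44.6%) were below it. Across the 37 genes, which are not independent, GC content and r with the mitochondrial level correlated at -0.70, and GC content and log2 fold change at 0.57. Without controls 4 and 5 the first became -0.39, and GC content and the difference of group mean log2 CPM correlated at -0.28 in place of 0.57. The relation of GC content to the group difference thus turned without these 2 libraries. The 19 members of lower GC had a median log2 fold change of 0.05 and the 18 of higher GC one of 0.11 with all libraries. In the difference of mean log2 CPM without controls 4 and 5 the medians were 0.14 and 0.12. The part of base composition in the group difference was not tested.

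**Figure D4:**
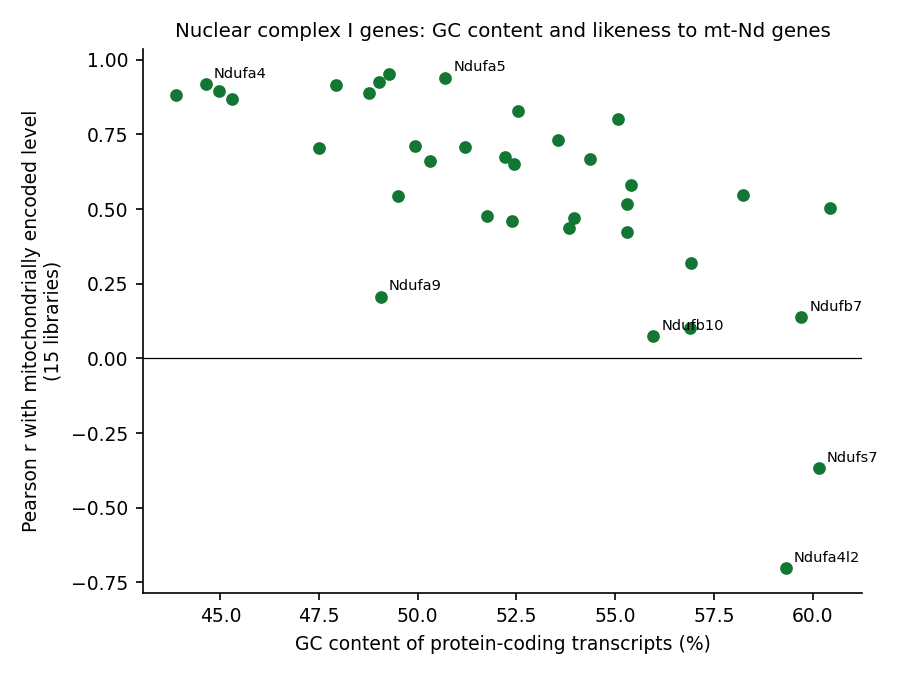
GC content of protein-coding transcripts (horizontal axis, percent) against the Pearson r over 15 libraries with the mean level of the mitochondrially encoded genes (vertical axis), 1 point per nuclear complex I gene (all but 1). Near 60%, Ndufs7 and Ndufb7 lie low but Ndufa13 (60.4%) is at r = 0.50. Near 50%, Ndufc2 and Ndufa5 lie high but Ndufa9 (49.1%) is at r = 0.21. The correlation over all 37 genes, -0.70 here, is -0.39 without controls 4 and 5.

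Nuclear complex I levels also moved with markers of cell types in the dissected tissue. The 20 skeletal muscle markers summed to 417.8 to 3270.4 CPM in controls and 944 to 4525 CPM in INK-ATTAC libraries, and all 20 had a log2 fold change above 0 (median 0.77, 0 past the adjusted threshold). The mean of their log2 CPM was 5.12 ± 1.02 for control (SD, n = 7) and 5.98 ± 0.69 for INK-ATTAC libraries (SD, n = 8). It correlated with the nuclear complex I level at r = 0.66 (rho 0.71) and with the mitochondrially encoded level at 0.28 (rho 0.38) over the 15 libraries. With the muscle level as a covariate, the median log2 fold change of the nuclear members went from 0.09 to 0.02, and 24 of 37 were above 0. The mitochondrial median went to -0.20 and the difference of the log2 ratio to 0.17.

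The 10 markers of choroidal endothelium ran against complex I, at r = -0.84 (rho -0.87) with the nuclear and -0.69 (rho -0.85) with the mitochondrially encoded level, and had group means of 4.66 ± 0.44 and 4.67 ± 0.36 log2 CPM (SD, n = 7 and n = 8). The 15 RPE markers ran with the nuclear level (r = 0.66, rho 0.65). Ndufa4l2 showed the reverse of most members, with r = 0.78 (rho 0.67) against the endothelial and -0.77 (rho -0.79) against the RPE markers. Markers of other cell types mostly lay on 1 side of 0 within a list, but the group sums overlapped, with 0 genes past the adjusted threshold in each list. Over all genes tested, 49.8% lay above 0 and 4.14% had an unadjusted p under 0.05 in edgeR. All 12 lens markers tested lay above 0 (median 2.61), 8 of them at an unadjusted p under 0.05, and they summed to 21.3 to 873.0 CPM in controls and 22.0 to 4219.7 CPM in the INK-ATTAC group. The lens level had r = 0.17 (rho 0.31) with the nuclear and -0.24 (rho -0.08) with the mitochondrially encoded level. All 7 erythrocyte markers lay below 0 (median -0.46), with sums of 236.5 to 2009.8 and 114.2 to 1656.7 CPM and r = -0.23 (rho -0.02) with the nuclear level. Of 10 macrophage markers 9 lay below 0 (median -0.04, r = -0.49), and all 5 adipocyte markers tested lay above 0 (median 0.55, r = 0.23). Of 20 rod photoreceptor markers 19 lay below 0 (median -0.25). Their level, at 5.28 ± 0.59 log2 CPM in controls and 4.87 ± 0.98 in INK-ATTAC libraries, had r = -0.21 (rho 0.10) with the nuclear level. With the rod level as a covariate, 33 of the 37 nuclear members were above 0. The muscle level itself had group means of 5.12 and 5.98 log2 CPM, so the fit with it cannot tell muscle content from group. The part of cell mixture in these values was not tested. The muscle and endothelial levels kept r = 0.66 and r = -0.84 with the nuclear level when controls 4 and 5 were left out.

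**Figure D5:**
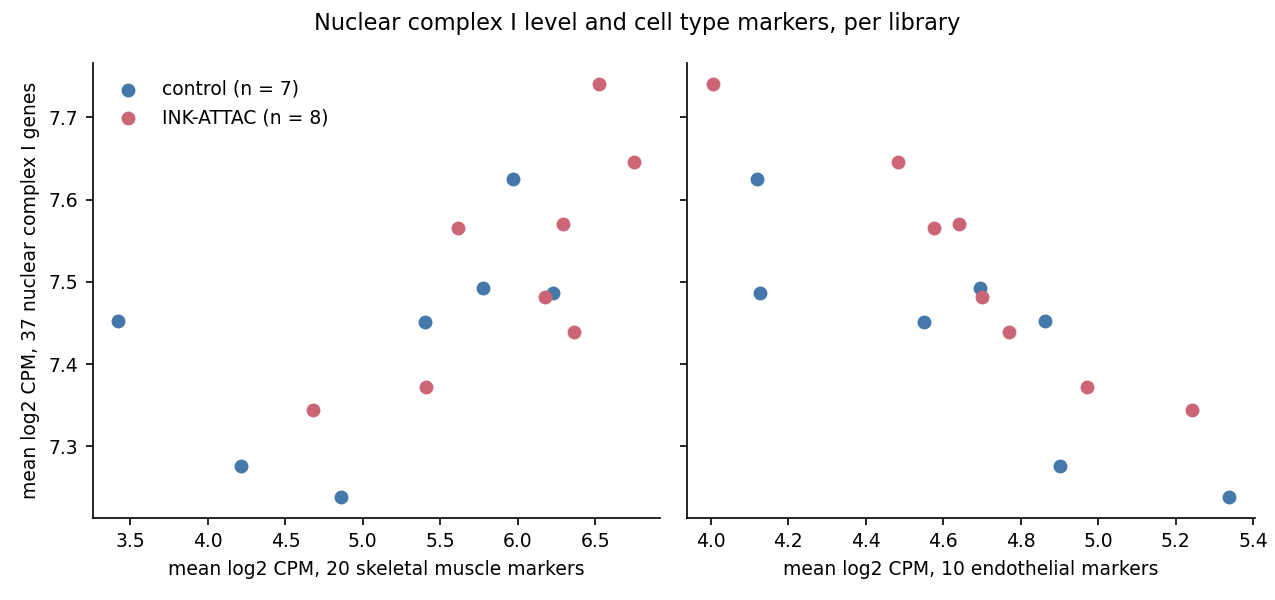
Mean log2 CPM of the 37 nuclear complex I genes (vertical axis) against the mean log2 CPM of cell type markers (horizontal axes), 1 point per library, coloured by group (7 control, 8 INK-ATTAC). The nuclear complex I level goes up with the skeletal muscle markers (r = 0.66) and down with the choroidal endothelium markers (r = -0.84).

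The genes that help build the complex lay on both sides of 0. Of 18 assembly factor genes, a list that includes Ndufab1, 10 were above 0 and 8 below (median 0.02), with 0 past the adjusted threshold. Those of lowest p were Ndufaf8 (log2 fold change 0.14, SE 0.07), Ecsit (0.13, SE 0.07), Ndufaf6 (0.25, SE 0.14) and Tmem126b (-0.12, SE 0.08), which acts in building the membrane arm. The level of this list followed the nuclear members at r = 0.92 (rho 0.90) and the mitochondrially encoded ones at 0.82 (rho 0.86).

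Of 25 genes for transcription and RNA handling of mitochondrial DNA, 8 were above 0 and 17 below (median -0.02), with 0 past the adjusted threshold. Tfam, which packages mitochondrial DNA and starts its transcription, gave -0.18 (SE 0.08), Fastkd1 0.26 (SE 0.10), Mtpap, the mitochondrial poly(A) polymerase, -0.19 (SE 0.11) and Trmt10c -0.17 (SE 0.10). This list followed the mitochondrially encoded members (r = 0.83, rho 0.70) more closely than the nuclear ones (r = 0.36, rho 0.40) with all libraries. With controls 4 and 5 left out the values were 0.50 (rho 0.54) and 0.32 (rho 0.41), and their difference was not tested. Of 12 transcription factors and coactivators of nuclear respiratory genes, 7 were above 0 (median 0.09, 0 past the threshold), among them Perm1 (0.59, SE 0.31) and Nrf1 (0.13, SE 0.09), with Gabpa and Gabpb1, both subunits of GABP, at -0.14 each.

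The remaining 6 protein-coding genes of mitochondrial DNA divided evenly, with 3 above 0 and 3 below, from mt-Atp8 at -0.19 (SE 0.19) to mt-Co3 at 0.09 (SE 0.11). The genes mt-Co2, mt-Co3 and mt-Atp6, the 3 above 0, have copies on chromosome 1 that took 52.0%, 47.3% and 49.1% of the reads of each pair. The copy of mt-Co1, which lay below 0 (-0.11, SE 0.09), took 4.60%. Of the 4 complex II genes, all nuclear, 3 were above 0 with a median of 0.09. Outside the members, the genes most like the mean nuclear level over 15 libraries, among 9271 candidates whose log2 CPM averaged 3 or more, were Timm8b, Pfdn1, Smim20, Atp5l, Cox7a2, Atp5j2, Prdx5, Itgb1bp1, Coa3 and Sra1, with r from 0.96 down to 0.95.

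Some of the nuclear members, a minority for each motif searched, share short promoter motifs that were not used to choose the members. The RefSeq promoter table (GRCm38.p6, 250 bases before to 50 after the start) held 32 of the 44 members. The YY1-type motif AAGATGGCG, searched on both strands, was found in 5 of the 32 (15.6%) and in 1.64% of all 27025 genes in the table. In each of these 5 genes it lies on the coding strand, 23 to 36 bases after the start of transcription, and its ATG is an annotated start codon. The 30-base windows are shown with the motif in capitals to show how alike their positions at the start codon are.
Ndufc1 (chr3:51408914-51408943, minus strand): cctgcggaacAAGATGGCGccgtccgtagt
Ndufa9 (chr6:126849096-126849125, minus strand): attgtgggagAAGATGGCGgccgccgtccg
Ndufs7 (chr10:80249463-80249492, plus strand): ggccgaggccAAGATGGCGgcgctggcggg
Ndufs6 (chr13:73328433-73328462, minus strand): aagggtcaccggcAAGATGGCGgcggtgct
Ndufs4 (chr13:114388045-114388074, minus strand): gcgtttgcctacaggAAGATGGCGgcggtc

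The 5 genes with this motif ranged from 0.04 (Ndufc1 and Ndufs4) to 0.20 (Ndufs7) in log2 fold change. The NRF1 motif GCGCATGCG was found in 2 of 32 promoters (6.25%, against 1.95% of all genes). It starts 60 bases before the start of transcription in Ndufa11, where the letters read the same on both strands over one more base, and 9 bases before it, on the other strand, in Ndufa8. Ndufa11 and Ndufa8 had log2 fold changes of 0.12 and 0.09.
Ndufa11 (chr17:56717692-56717721, plus strand): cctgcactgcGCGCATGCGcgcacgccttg
Ndufa8 (chr2:36049328-36049357, minus strand): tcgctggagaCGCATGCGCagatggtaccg

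The other motifs, also searched on both strands, were CCGGAAG of ETS factors (12.5% of members against 9.93% of all genes), GGGGCGGGG of SP1 (15.6% against 12.9%), TGACGTCA (9.38% against 2.03%), CCAAT (31.3% against 41.1%), TATAAA (12.5% against 15.7%) and TCAAGGTCA of ERR factors (0 of 32 against 0.466%). These 8 motifs were chosen after the data were seen. A match is a run of letters in this window and says nothing of whether a factor binds there.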

How the data were processed

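RNA-seq libraries of mouse RPE/choroid (7 control, 8 INK-ATTAC) were grouped by their labels. Per the labels' protocols, RNA was column-purified and SMARTer was used to amplify cDNA. GRCm38 is the build and bcl2fastq, DRAGEN, limma and edgeR the tools named per the submitters' processing notes. How reads were assigned to genes, and whether strand was used, is not given in the sources used here, so reads of a gene and of an overlapping or antisense gene cannot be told apart. The authors deposited a table of raw counts per gene, not normalized. Their second deposited table holds, per the file headers, log2 fold changes and p-values, from which values of members were copied.

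Of 40757 entries, 276 repeats were collapsed. The lowest chi-square value per gene between libraries of a group was 27.6 over 49 pairs, so no library repeated another. Counts were scaled by TMM and filtered with filterByExpr (17991 genes), then tested with edgeR 4.0.16 (R 4.3.3), quasi-likelihood F-test, two-sided. The Benjamini-Hochberg method adjusted p over all genes, with a threshold of 0.05. The standard error is the absolute log2 fold change over the square root of F. CPM are on TMM library sizes, and exon lengths, positions and GC content come from GENCODE M21 (GRCm38). On simulated data with 17991 genes made from these libraries, the test recovered 44% of genes changed 1.5-fold and 69% of those changed 2-fold, with 4 false calls.

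Members and lists were chosen with earlier results of these data known. Values are given for the core subunits, of which 1 is counted but not reported here by itself, and among the others for the 5 highest and 5 lowest fold changes, the 5 of lowest p, the 3 highest and 3 lowest levels per length, Ndufa4 and Ndufa4l2, and up to 4 genes of lowest p in each other list. A few genes beside these, such as Ndufb4 and Ndufa13, are named as extremes of a range. Alternatives were DESeq2 1.42.0, limma 3.58.1 (voom, with and without quality weights), RLE or total-count scaling, other low-count filters, covariates for muscle, rod and sex-linked levels, a replicate block, leaving out each library, leaving out Ndufa4 and Ndufa4l2, and leaving out mt-Nd6. Leaving out controls 4 and 5 together and adding the chromosome 1 copies were chosen after seeing the data.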

Additional observations from a re-analysis of the deposited data

How the results depend on the processing

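No complex I gene passed in any setting. Over all genes tested, edgeR called 0 genes (745 at an unadjusted p under 0.05), DESeq2 called 6, limma-voom 0 and limma-voom with sample quality weights 2, and without controls 4 and 5 edgeR called 1. The nuclear median log2 fold change stayed above 0 in all settings run, from 0.017 with the muscle covariate to 0.13 without controls 4 and 5, and the difference of the log2 ratio stayed above 0. The median of the mitochondrially encoded members went to 0.084 without controls 4 and 5 together. With single libraries left out, the nuclear median ran from 0.055 to 0.12, the mitochondrial median from -0.19 to -0.036 and the ratio difference from 0.12 to 0.17, with 0 members and 0 genes called. The lowest ratio difference was without control 4 and the mitochondrial median nearest 0 without control 5.

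Of the 29 members followed across settings, 14 kept their direction in every setting and 15 turned in at least one. The cause was not tested. limma-voom gave 0.0078 for mt-Nd1 and 0.042 for Ndufb2. Quality weights gave 0.082 for mt-Nd1, 0.00012 for mt-Nd4, 0.020 for Ndufc2, 0.035 for Ndufb3, 0.065 for Ndufb5 and 0.12 for Ndufb2. Without a low-count filter mt-Nd1 was 0.00057. The muscle covariate gave -0.087 for Ndufs1, -0.086 for Ndufv2, -0.13 for Ndufa5, -0.049 for Ndufb11, -0.0046 for Ndufa1 and -0.071 for Ndufa4, and the sex-linked covariate -0.0017 for Ndufs1 and 0.0031 for Ndufb2. Without controls 4 and 5 the values were 0.13 for mt-Nd1, 0.084 for mt-Nd2, 0.10 for mt-Nd3, 0.019 for mt-Nd4, 0.094 for Ndufc2, 0.076 for Ndufb3, 0.12 for Ndufb5, 0.24 for Ndufb2 and -0.13 for Ndufa4l2. Leaving out 1 library turned Ndufa4 (-0.027 to 0.10), Ndufa4l2 (-0.076 to 0.16), Ndufa5 (-0.041 to 0.11), Ndufb11 (-0.0093 to 0.081), Ndufb2 (-0.061 to 0.089), Ndufb3 (-0.080 to 0.019), Ndufb5 (-0.087 to 0.045), Ndufc2 (-0.10 to 0.015), Ndufs1 (-0.020 to 0.060), Ndufv2 (-0.0034 to 0.10) and mt-Nd1 (-0.056 to 0.057).

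The replicate block by title number gave a nuclear median of 0.11, a mitochondrial median of -0.085, a ratio difference of 0.15, 0 members and 0 genes called, and turned mt-Nd1 to 0.034 and Ndufb2 to 0.038. Same-numbered libraries correlated at -0.10 to 0.27 in their deviations, over 0.1 for 4 of 7 numbers, and 1 of 7 controls and 4 of 7 INK-ATTAC libraries correlated best with their own number. Since not every number was over 0.1, the libraries were taken to share only a number. Depth did not limit the abundant members, and mt-Nd4l, at 151 counts or more per library, had the fewest counts of the members.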
